A study of Mus musculus with 19 samples.

Results

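Tumor necrosis factor (TNF), the lymphotoxins, their receptors and the genes that carry or answer their signal were described across fat and pancreatic lymph nodes (PLNs) of female NOD (NOD/LtJx) mice, a strain with spontaneous autoimmune diabetes. The genes are Tnf, Lta, Ltb, Tnfrsf1a, Tnfrsf1b, Ltbr, Traf2, Tnfaip3, Tnfaip2 and Adam17. They were chosen by name, as every probe set whose only annotated gene is one of them. This gave 16 probe sets of 10 genes, among 45037 probe sets and 18193 genes measured. Tnf, Lta, Ltb, Tnfrsf1a, Ltbr and Traf2 have 1 probe set each, Tnfrsf1b and Tnfaip3 have 2, and Tnfaip2 and Adam17 have 3.

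The data are 19 Affymetrix mouse arrays of total RNA. Fat was taken from normal mice (NOR, 2 arrays), from diabetic mice (DIA, 2), from mice given alpha 1-antitrypsin, a serum protease inhibitor (AAT, 2), and from mice given Power Mix, a combination of an IL2.Ig fusion protein, an antagonist-type mutant IL15.Ig and rapamycin (PM, 3). PLNs were taken from NOR (4 arrays), DIA (2) and AAT (4) mice. Per the study's methods, the AAT and PM mice had new onset diabetes before they were treated. A note on streptozotocin and earlier anti-TNF treatment is attached to every sample alike, normal mice included. The study's methods tie streptozotocin to anti-TNF-treated mice that later received islet transplants. Anti-TNF itself was given there to mice with new onset diabetes. The age of the mice and the dose are not given for the arrays in the sources used here, nor whether the arrays of a group came from different mice. The methods name epididymal fat, a male depot, for the insulin signaling experiments and RNA taken with them, whereas the labels give female mice, so the depot of the arrays is not settled. P-values therefore measure only the spread between these samples, which may be technical.

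TNF and lymphotoxin alpha are secreted by activated lymphoid and myeloid cells and signal through the receptors TNFR1 (Tnfrsf1a) and TNFR2 (Tnfrsf1b). Lymphotoxin beta anchors lymphotoxin alpha to the cell membrane, and this complex signals through the lymphotoxin beta receptor (Ltbr), which shapes and maintains lymph nodes. TNF is made as a membrane protein that ADAM17 cuts free. TRAF2 links the receptors to NF-kB, and the NF-kB targets include Tnfaip3 (A20), which switches the signal off, and Tnfaip2. In fat, TNF from macrophages is a known inhibitor of insulin action.

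Each value is a signal (intensity), which the authors had brought to a common trimmed mean across arrays, and is given here as log2. Levels can be compared between arrays for 1 probe set, not between probe sets. A gene is represented by its brightest probe set, the one with the highest mean over all 19 arrays. Changes are log2 differences of group means from limma, with the standard error (SE), and are relative, that is, given after subtracting the median change of all probe sets. That median was −0.11 in fat and −0.11 in PLNs for DIA vs NOR, −0.05 in fat and −0.58 in PLNs for AAT vs DIA, −0.13 in fat and −0.72 in PLNs for AAT vs NOR, 0.15 for PM vs DIA, 0.02 for PM vs NOR, 0.17 for PM vs AAT, and 0.04 for NOR fat vs NOR PLNs. A gene is called where its p in limma, adjusted over all probe sets for the change as measured, is under 0.05. A looser pair of criteria from the study, called its thresholds here, asks that the change as measured be over 2-fold with an unadjusted p no higher than 0.05. The limma p is used for it here, where the study's methods name a rank product test.

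Pearson correlations of log2 signals between arrays of 1 group ran from 0.789 to 0.866 for fat and from 0.705 to 0.89 for PLNs. The labelled tissues carried their defining transcripts: Adipoq, the adipocyte hormone adiponectin, averaged 15.04 in fat and 7.52 in PLNs, and Cd3e, a chain of the T cell receptor complex, averaged 6.38 and 12.76. The 3' to 5' signal ratio of actin, a sign of RNA quality, was 3.63 and 4.3 in fat NOR, 15.2 and 15.5 in fat DIA, 5.87 and 9.08 in fat AAT and 3.35 to 6.32 in fat PM. For Gapdh this ratio was 5.55 to 8.01 in PLN NOR, 10 and 10.8 in PLN DIA and 7.43 to 25 in PLN AAT. The summed signal of pancreatic acinar markers was 318960 on PLN AAT array 3 and 17050 on PLN DIA array 1, against 810 to 3135 on the other PLN arrays, so these 2 arrays stand apart.

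The promoters of the 3 ligands and of Tnfaip3 are shown because the ligand genes are neighbours on chromosome 17 and lay low in fat together, and because Tnfaip3 is the feedback gene of the pathway. Each sequence covers 250 bases before to 50 bases after the start of the gene, from RefSeq on build GRCm38.p6. Capitals mark matches to the NF-kB consensus (the degenerate kB motif) and to TATAAA, each searched on either strand. The TATAAA matches shown all lay on the forward strand.
Tnf, minus strand, chr17:35201958-35202257: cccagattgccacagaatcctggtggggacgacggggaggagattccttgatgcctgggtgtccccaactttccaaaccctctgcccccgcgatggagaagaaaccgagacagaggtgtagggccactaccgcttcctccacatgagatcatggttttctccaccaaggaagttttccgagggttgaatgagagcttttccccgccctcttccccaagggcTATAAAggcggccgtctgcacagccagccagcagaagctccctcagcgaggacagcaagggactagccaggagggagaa
Lta, minus strand, chr17:35205302-35205601: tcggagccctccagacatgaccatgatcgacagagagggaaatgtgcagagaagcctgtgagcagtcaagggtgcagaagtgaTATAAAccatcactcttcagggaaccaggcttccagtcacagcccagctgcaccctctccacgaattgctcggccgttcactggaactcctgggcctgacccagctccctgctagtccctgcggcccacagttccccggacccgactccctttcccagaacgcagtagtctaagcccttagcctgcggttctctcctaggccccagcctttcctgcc
Ltb, plus strand, chr17:35194257-35194556: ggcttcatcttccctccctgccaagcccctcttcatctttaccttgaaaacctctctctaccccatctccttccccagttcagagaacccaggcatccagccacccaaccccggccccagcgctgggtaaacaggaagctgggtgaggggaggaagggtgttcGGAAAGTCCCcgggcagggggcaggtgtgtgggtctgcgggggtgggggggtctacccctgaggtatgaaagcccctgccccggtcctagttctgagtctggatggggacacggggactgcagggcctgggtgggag
Tnfaip3, minus strand, chr10:19015361-19015660: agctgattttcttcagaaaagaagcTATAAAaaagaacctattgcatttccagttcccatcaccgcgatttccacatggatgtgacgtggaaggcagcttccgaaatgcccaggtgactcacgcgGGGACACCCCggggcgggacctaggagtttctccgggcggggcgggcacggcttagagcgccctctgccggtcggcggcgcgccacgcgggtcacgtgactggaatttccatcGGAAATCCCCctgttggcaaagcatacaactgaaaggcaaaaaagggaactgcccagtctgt

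The kB motif was matched once in the Ltb promoter, starting at position −87 from the gene start on the minus strand, and at −125 and −12 in the Tnfaip3 promoter, and it was not matched in the Tnf and Lta windows. TATAAA was matched at −29 in Tnf, at −167 in Lta and at −225 in Tnfaip3. Of 32851 promoters of the same length, 1480 (4.51%) held the kB motif and 4473 (13.6%) held TATAAA, counting either strand. The second annotated start of Tnfaip3 and the promoters of the other members held neither. A match is a description of the letters only.

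The first comparison set normal fat against normal PLNs. Of the 16 probe sets, 9 were called (3 higher and 6 lower in fat), where 22.2% of all probe sets were called. All 3 ligands lay lower in fat, while the receptors divided: Tnfrsf1a and Ltbr were higher in fat and the brighter probe set of Tnfrsf1b was higher in PLNs. The NOR fat arrays lay wholly above the NOR PLN arrays for 25.8% of all probe sets (3 members) and wholly below them for 25.1% (8 members). In bulk tissue, fewer cells of a type and less RNA per cell cannot be told apart.

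Tnf, the soluble and membrane-bound cytokine, had log2 signals of 6.31 and 4.98 on the NOR fat arrays and of 8.40, 7.86, 7.87 and 8.58 on the NOR PLN arrays. The groups did not overlap. The relative change was −2.57 ± 0.93 (SE), a level 5.94-fold lower in fat, and the limma adjusted p of 0.0539 fell short of the threshold. Tnf was dim in fat, where its mean stood at percentile 15.2 of all probe sets. Without NOR fat array 1 the relative change was −3.14, and without NOR fat array 2 it was −2.10.

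Lta, the lymphotoxin alpha gene, had log2 signals of 5.40 and 5.38 in NOR fat and of 9.56, 8.88, 7.84 and 8.20 in NOR PLNs. Every PLN array was above both fat arrays. Its relative change was −3.27 ± 0.84 with a limma adjusted p of 0.00751, and the call was lost without either NOR fat array, at adjusted p-values of 0.059 and 0.0618. Ltb, the membrane anchor of the complex, had 3.78 and 5.38 in NOR fat and 8.33, 10.32, 10.47 and 9.69 in NOR PLNs. It differed by a relative −5.17 ± 0.81 (limma adjusted p = 7.93e-05). Its fat signals are dim, and with a floor at percentile 20 or with log2 of the signal plus 32 the change was −4.02 or −3.93, still called (adjusted p = 0.00151 and 0.000153). T and B cell markers moved the same way: Cd3e differed by −6.72 ± 0.50, and Ms4a1, a B cell marker, by −3.10 ± 0.51.

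**Figure D1:**
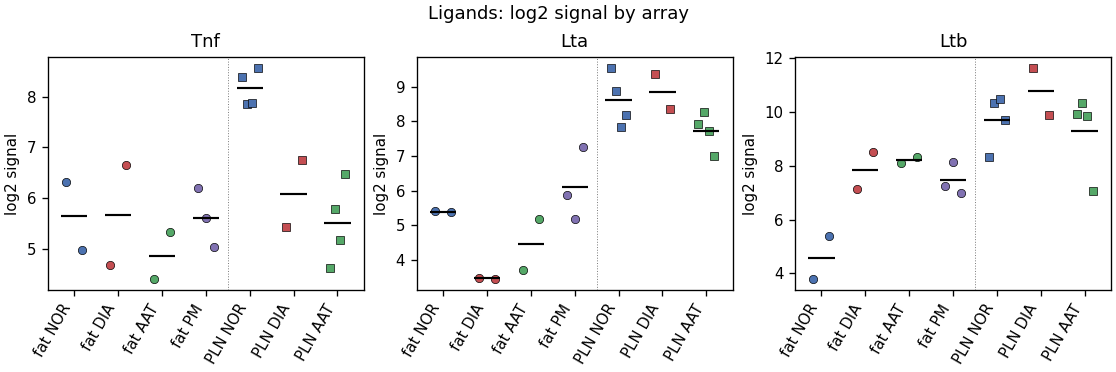
Log2 signal (y axis) of Tnf, Lta and Ltb on each array of the 7 groups (x axis). Circles are fat arrays, squares are PLN arrays and bars are group means. Tnf in PLN NOR (7.86 to 8.58) lies above PLN DIA and AAT, and Ltb in fat NOR (3.78 and 5.38) lies below all other fat arrays.

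Tnfrsf1a, the receptor that most cells carry, had log2 signals of 11.01 and 11.69 in NOR fat and of 5.41, 9.18, 7.77 and 5.83 in NOR PLNs. The fat arrays were close to each other and the PLN arrays were spread widely. The relative change was 4.26 ± 0.74 (limma adjusted p = 0.000196), or 19.1-fold higher in fat. Ltbr, the lymphotoxin beta receptor of stromal and other non-lymphoid cells, had 9.97 and 9.86 in NOR fat against 4.37, 3.58, 6.85 and 3.79 in NOR PLNs, a relative change of 5.22 ± 0.98 (limma adjusted p = 0.000466). Ltbr was dim in PLNs, where its mean stood at percentile 14.6, and the floor or the added 32 gave 4.05 or 3.96, both called (adjusted p = 4.77e-05 and 2.24e-05). Over all groups, every one of the 9 fat arrays was above every one of the 10 PLN arrays for Tnfrsf1a and Ltbr, a pattern that 8.25% of all probe sets showed.

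Tnfrsf1b, the receptor found mainly on leukocytes, ran the other way by its brighter probe set, with 9.63 and 8.85 in NOR fat and 11.40, 12.28, 12.34 and 11.72 in NOR PLNs. The relative change was −2.74 ± 0.46 (limma adjusted p = 0.000203). Its dimmer probe set was at 1.74 ± 0.96 and was not called (adjusted p = 0.193), so the direction holds for 1 of 2 probe sets. Every fat array was below every PLN array for the brightest probe sets of Tnfrsf1b, Tnfaip3, Tnfaip2 and Adam17, as for 5.58% of all probe sets. No other probe set of these genes showed this pattern. Choosing the brightest over all 19 arrays, 10 of them of PLNs, favours probe sets that are bright in PLNs.

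Adam17, the sheddase, was at 7.63 and 8.87 in NOR fat and between 11.15 and 11.85 in NOR PLNs by its brightest probe set. Its relative change was −3.34 ± 0.62 (limma adjusted p = 0.00046), against −0.80 ± 0.65 and −0.83 ± 0.66 for its other probe sets, which were not called. Traf2, the adaptor, was at 8.45 and 8.20 in NOR fat and at 6.38, 8.23, 6.52 and 6.22 in NOR PLNs, and its 1.45 ± 1.17 was not called (adjusted p = 0.389). The groups overlapped for Traf2 and were apart for the brightest Adam17 probe set.

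The induced genes depended on the probe set. Tnfaip3, which encodes the ubiquitin-editing enzyme A20, was at 9.25 and 9.20 in NOR fat and between 11.31 and 11.80 in NOR PLNs by its brighter probe set (1433699_at), a relative −2.47 ± 0.42 (limma adjusted p = 0.000239). Its dimmer probe set (1450829_at) was called in the opposite direction, at 3.36 ± 1.20 (adjusted p = 0.0434), and the mean of both gave 0.36. No direction can therefore be given for Tnfaip3 as a gene. Tnfaip2 was at 7.86 and 8.80 in NOR fat and between 11.60 and 13.37 in NOR PLNs by 1438855_x_at, a relative −4.33 ± 0.52 (adjusted p = 3.17e-06), while its other probe sets were at 0.27 ± 0.86 and 0.74 ± 0.83. The ending of that name marks a probe set that may also bind other transcripts.

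**Figure D2:**
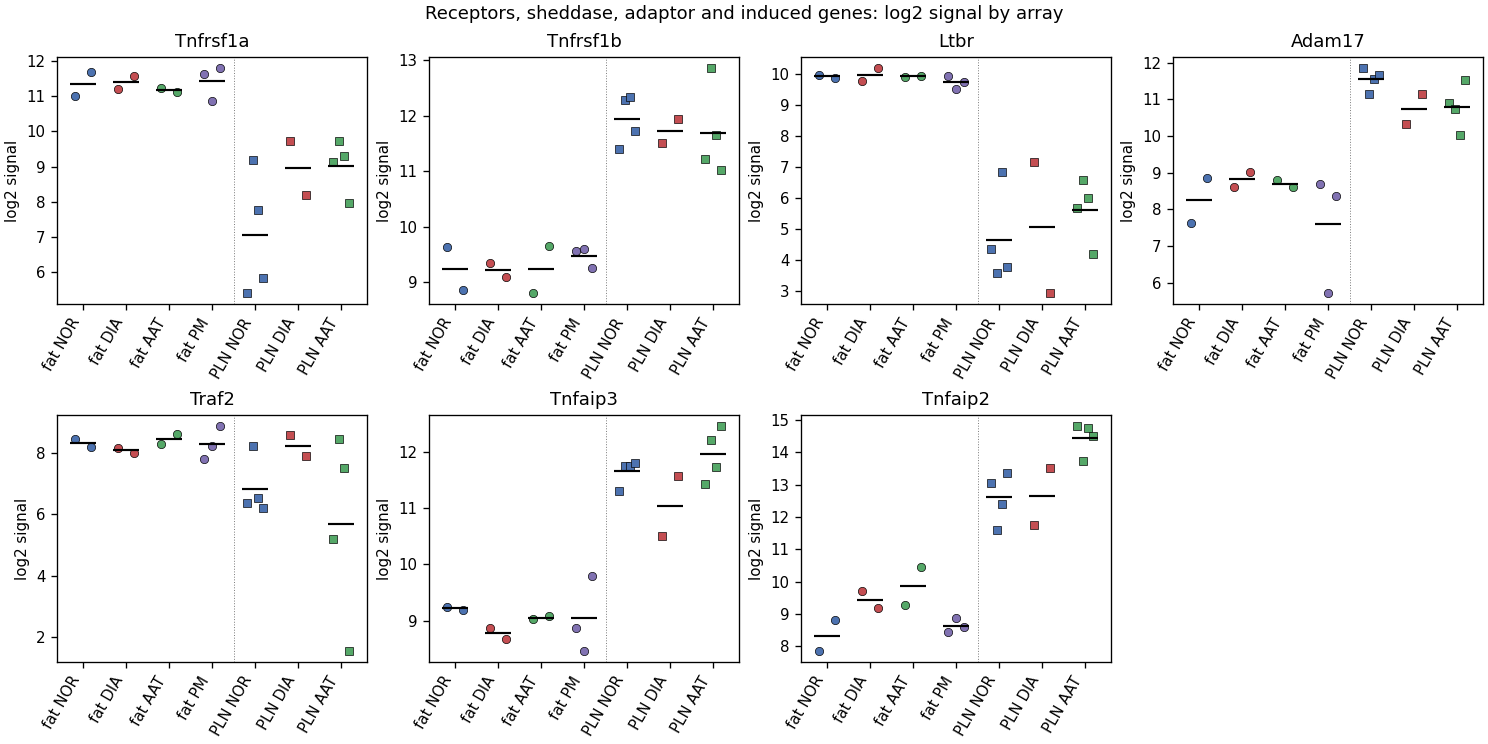
Log2 signal (y axis) of the brightest probe set of the receptors, the sheddase Adam17, the adaptor Traf2 and the induced genes Tnfaip3 and Tnfaip2, by array in the 7 groups (x axis). Circles are fat arrays, squares are PLN arrays and bars are group means. Tnfrsf1a and Ltbr stand above all PLN arrays in fat, and Tnfrsf1b, Adam17, Tnfaip3 and Tnfaip2 stand below them.

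Among the other genes of the pathway, grouped in lists written from textbook knowledge, counts of calls in normal fat vs normal PLNs stand beside 10.3% of all probe sets called higher and 11.9% lower. The shares of several lists lay near that background. Of 28 measured adaptors and regulators of the receptor complex, 1 rose and 8 fell, among them Traf1, an NF-kB-induced adaptor (−4.97 ± 0.56), Birc3, a ubiquitin ligase of the complex (−3.37 ± 0.41), and Cyld, a deubiquitinase (−2.36 ± 0.48). Of 12 NF-kB genes, 1 rose (Rela, the p65 subunit, 4.46 ± 0.83) and 4 fell, including the inhibitor Nfkbie (−8.03 ± 0.79). Of 12 targets and partners of the lymphotoxin beta receptor, 1 rose and 5 fell, including Glycam1 of lymph node vessels (−10.33 ± 0.90) and the B cell chemokine Cxcl13 (−3.28 ± 0.59).

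Of 31 genes induced by TNF, 3 rose and 6 fell, such as the chemokine Ccl5 (−5.43 ± 0.57). Of 22 other receptors of the superfamily none rose and 5 fell, such as Tnfrsf13c, the receptor for the B cell factor BAFF (−5.52 ± 0.53), Cd40 (−4.09 ± 0.52) and Cd27 (−3.56 ± 0.76). Of 11 other ligands none rose and 2 fell, Tnfsf11 (RANKL, −4.73 ± 0.86) and Tnfsf14 (LIGHT, −3.16 ± 0.99). Of 8 genes of shedding, Rhbdf1, a partner of ADAM17, rose (2.00 ± 0.55). The medians of these lists ran from −1.88 for the lymphotoxin beta receptor targets to 0.49 for shedding, against 0 for all probe sets by construction. By their brightest probe sets, the 10 genes described here had a median of −2.66, which depends on that choice of probe set. The brightest probe sets of all genes had a median of 0.18.

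In fat, the question was whether these genes differed between normal and diabetic mice and after either treatment. No probe set of the array was called in any of the 6 fat comparisons (0% of all), and so no member was. At an unadjusted p under 0.05 in limma there were 2 members in DIA vs NOR, 0 in AAT vs DIA, 3 in PM vs DIA, 2 in AAT vs NOR, 1 in PM vs NOR and 1 in PM vs AAT. In the same order, 4036, 2137, 4365, 2283, 1535 and 2500 of all 45037 probe sets were under it. By the study's thresholds, 2 of 16 members passed in DIA vs NOR (7.67% of all probe sets), 0 in AAT vs DIA (3.85%), 3 in PM vs DIA (7.69%), 2 in AAT vs NOR (4.56%), 1 in PM vs NOR (3.12%) and 1 in PM vs AAT (4.88%).

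Ltb had the largest changes of the members relative to NOR. Its log2 signals were 3.78 and 5.38 in NOR, 7.15 and 8.52 in DIA, 8.11 and 8.33 in AAT, and 7.25, 8.15 and 6.98 in PM. Both NOR arrays lay below all 7 others, and the DIA, AAT and PM arrays overlapped. Of all probe sets, 18% lay above NOR without overlap in DIA, 12.9% in AAT and 8.68% in PM. Relative to NOR the change was 3.36 ± 0.86 in DIA, 3.77 ± 0.86 in AAT and 2.87 ± 0.78 in PM, with limma adjusted p-values of 0.417, 0.908 and 1. The NOR signals, 13.7 and 41.6 on the linear scale, are dim, so the sizes depend on how low values are treated. They were 2.06, 2.46 and 1.66 with a floor at percentile 20, and 2.27, 2.61 and 1.84 with log2 of the signal plus 32. These 3 comparisons share the same NOR arrays. AAT and PM differed from DIA by 0.44 ± 0.86 and −0.52 ± 0.78, so the treated groups lay nearer to DIA than to NOR.

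Without NOR array 1 the DIA vs NOR change of Ltb was 2.44, and without NOR array 2 it was 4.36. Macrophage and monocyte markers moved with Ltb. Of 15 measured, 12 lay above the median of all probe sets in DIA vs NOR, and their summed signal was 9686 and 10116 in NOR, 19267 and 33818 in DIA, 14562 and 20120 in AAT and 13589 to 15759 in PM. This count was not particular to macrophages: 10 of 13 T cell, 12 of 14 endothelial and 11 of 12 stromal markers also lay above that median. Fewer did for B cells (3 of 13), neutrophils (3 of 9), adipocytes (6 of 12), acinar cells (4 of 12) and erythroid cells and platelets (0 of 10). Summed T cell markers overlapped between groups (1336 and 2375 in NOR, 1488 and 2136 in DIA), with the lowest mean log2 on NOR array 2 (5.97, against 6.43 to 7.35 on the arrays outside NOR), and B cell markers did too between NOR (2662 and 5675) and DIA (2563 and 2778). The actin ratio was higher in DIA and AAT than in NOR, and PM array 2, with the lowest ratio of all fat arrays (3.35), had an Ltb signal of 8.15. With this ratio as a covariate the DIA vs NOR change of Ltb was 3.93 (limma adjusted p = 0.492). The part of the markers in the Ltb difference was not tested.

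**Figure D3:**
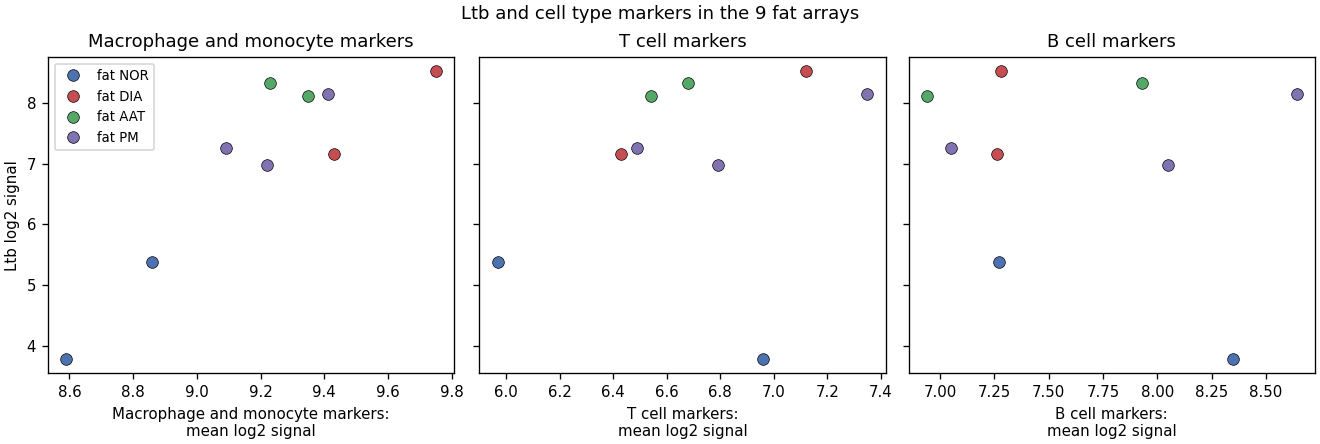
Ltb log2 signal (y axis) against the mean log2 signal of macrophage and monocyte, T cell and B cell markers (x axes) in the 9 fat arrays, coloured by group. The 2 NOR arrays have the lowest macrophage means (8.59 and 8.86). NOR array 2 also has the lowest T cell mean (5.97), and the other NOR T cell and B cell means lie among those of the other arrays.

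Lta had 5.40 and 5.38 in NOR fat, 3.48 and 3.43 in DIA, 3.71 and 5.18 in AAT, and 5.86, 5.19 and 7.25 in PM. The DIA arrays lay below all others, and the PM arrays overlapped with NOR. DIA lay below NOR without overlap for 23.2% of all probe sets, below AAT for 14.9% and below PM for 18.3%. The relative change was −1.82 ± 1.11 in DIA vs NOR (limma adjusted p = 0.636) and 2.50 ± 1.01 in PM vs DIA (adjusted p = 0.454), where Lta passed the study's thresholds. Lta was the dimmest member in fat, with its mean at percentile 10.4. Its linear means were 41.9 in NOR, 11 in DIA, 24.6 in AAT and 82.2 in PM, so the sizes of its changes are uncertain. The 10 measured erythroid and platelet markers were also low in DIA, with a summed signal of 4170 and 5038 against 11907 and 14377 in NOR, 6268 and 12725 in AAT and 7124 to 10998 in PM. The actin ratio followed Lta as well: it was 15.2 and 15.5 on the DIA arrays and 9.08 on AAT array 1, where Lta was 3.71, against 3.35 to 6.32 on the arrays with an Lta signal of 5.18 or more. The part of either in the Lta values was not tested.

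Tnf itself had 6.31 and 4.98 in NOR fat, 4.68 and 6.65 in DIA, 4.39 and 5.33 in AAT, and 6.19, 5.61 and 5.02 in PM. All groups overlapped. The DIA vs NOR change was 0.12 ± 1.11, AAT vs DIA −0.75 ± 1.11 and PM vs DIA −0.21 ± 1.02. With an SE of this size on a dim probe set, a change of 2-fold in either direction could not be detected.

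The brightest receptor probe sets varied little in fat. Tnfrsf1a ranged from 10.88 to 11.80, Ltbr from 9.52 to 10.18 and the brighter Tnfrsf1b probe set from 8.81 to 9.66 over all 9 arrays, and none passed the study's thresholds in any fat comparison. The ranges of Traf2 (7.81 to 8.88) and of the brighter Tnfaip3 probe set (8.47 to 9.79) were about as narrow. The dimmer Tnfaip3 probe set ranged from 4.40 to 8.26, with 8.26 and 7.02 in NOR, 7.36 and 4.40 in DIA and 7.07 and 5.33 in AAT, and differed by −1.65 ± 1.34 in DIA vs NOR (limma adjusted p = 0.723).

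Tnfaip2 was at 7.86 and 8.80 in NOR fat, 9.70 and 9.17 in DIA, 9.28 and 10.45 in AAT, and 8.45, 8.86 and 8.60 in PM by 1438855_x_at. Both NOR arrays lay below the DIA and AAT arrays, as for 18% and 12.9% of all probe sets. All PM arrays also lay below the DIA and AAT arrays, as for 11.7% and 7.74%. The summed stromal markers divided the arrays in the same way, with 42752 and 44477 in NOR and 28210 to 37146 in PM against 54983 and 88477 in DIA and 65725 and 74149 in AAT, and their part was not tested. The study's thresholds were passed by DIA vs NOR (1.21 ± 0.50, limma adjusted p = 0.553), AAT vs NOR (1.67 ± 0.50, adjusted p = 0.93) and PM vs AAT (−1.40 ± 0.45, adjusted p = 0.852). Without NOR array 1 the DIA vs NOR value was 0.61, and without NOR array 2 it was 1.88. The other probe sets gave 0.18 ± 0.84 and −0.49 ± 0.69 in DIA vs NOR, and 1 of them (1416273_at) passed in PM vs DIA at 1.40 ± 0.63 (adjusted p = 0.474), where 1438855_x_at stood at −0.94 ± 0.45. In fat too, the probe sets of Tnfaip2 thus gave no common direction.

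Adam17 was between 7.63 and 9.03 on the fat arrays by its brightest probe set, except PM array 2 at 5.73. Its second probe set (1421859_at) was at 9.34 and 9.09 in NOR, 10.10 and 8.89 in DIA, 9.37 and 9.03 in AAT and 8.66, 6.41 and 8.66 in PM, and was also lowest on PM array 2. It passed the study's thresholds in PM vs DIA (−1.73 ± 0.65, limma adjusted p = 0.483), where the third probe set stood at 0.84 ± 0.73. Without PM array 2 it was −0.90. With the actin ratio as a covariate this value became 1.77, so its direction is not settled.

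**Figure D4:**
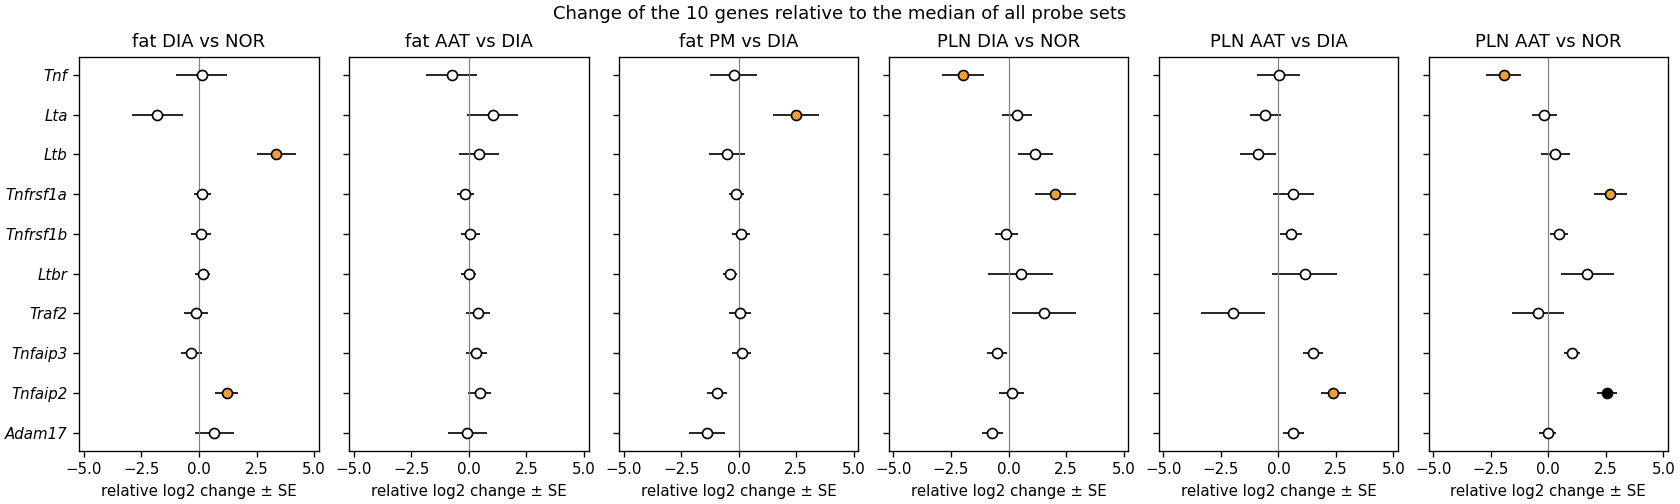
Relative log2 change ± SE (x axis) of the brightest probe set of each of the 10 genes (y axis) in 6 comparisons. Black points are called at an adjusted p under 0.05, orange points pass only the study's thresholds and open points pass neither. Only Tnfaip2 in PLN AAT vs NOR (2.56) is called. In fat, Ltb (3.36) and Tnfaip2 (1.21) in DIA vs NOR and Lta in PM vs DIA (2.50) pass only the study's thresholds. In PLNs, Tnf (−1.98 and −1.94) and Tnfrsf1a (2.02 and 2.70) in DIA and AAT vs NOR and Tnfaip2 in AAT vs DIA (2.39) do.

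Over the 10 genes, the median relative change in fat was 0.14 in DIA vs NOR, 0.20 in AAT vs DIA, −0.15 in PM vs DIA, 0.14 in AAT vs NOR, 0.02 in PM vs NOR and −0.25 in PM vs AAT, and 7 of 10 lay above the median of all probe sets in DIA vs NOR. The brightest probe sets of all genes had medians between −0.08 and 0.05 in these comparisons. The pathway lists also held no called gene in fat. By the study's thresholds, 3.79% of all probe sets passed upwards and 3.88% downwards in DIA vs NOR. Of 28 adaptors 1 passed up and 1 down, and of 12 NF-kB genes 1 up (Ikbkb, a kinase of the inhibitor, 1.63 ± 0.57). Of 31 TNF-induced genes 1 passed up (Ccl5, 2.36 ± 0.75) and 1 down (Cebpd, a transcription factor, −1.42 ± 0.31). None of 12 lymphotoxin beta receptor targets or 8 shedding genes passed. Of 11 ligands 1 passed down (Cd40lg, −1.17 ± 0.58). Of 22 receptors 3 passed down (Tnfrsf21, −2.09 ± 0.78, Tnfrsf4, −1.48 ± 0.60, and Tnfrsf18, −1.91 ± 0.76). In PM vs DIA, 4.6% of all probe sets passed upwards and 3.09% downwards. There, 4 of the 31 TNF-induced genes passed upwards and none downwards. Among them were Cebpd (2.04 ± 0.29, limma adjusted p = 0.081), Nfkbia, the NF-kB inhibitor (1.11 ± 0.41), and the neutrophil chemokine Cxcl1 (0.95 ± 0.36). Of the 22 receptors, Tnfrsf9 (1.91 ± 0.62), Tnfrsf18 (1.51 ± 0.70) and Tnfrsf21 (2.35 ± 0.71) passed upwards in PM vs DIA and none downwards.

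In PLNs, the Tnf arrays of NOR mice stood apart from the others, though Tnf was not called in any comparison except under some alternative settings given below. Its log2 signals were 8.40, 7.86, 7.87 and 8.58 in NOR, 5.42 and 6.75 in DIA, and 4.61, 5.79, 5.17 and 6.47 in AAT. All NOR arrays lay above all DIA arrays, as for 14.1% of all probe sets, and above all AAT arrays, as for 11.8%. The DIA and AAT arrays overlapped. The relative change was −1.98 ± 0.92 in DIA vs NOR (3.95-fold lower, limma adjusted p = 0.453) and −1.94 ± 0.75 in AAT vs NOR (3.84-fold lower, adjusted p = 0.0517), and AAT vs DIA was 0.01 ± 0.92. Both comparisons with NOR share its arrays. Tnf passed the study's thresholds in both with the limma p, and in DIA vs NOR it did not pass with the rank product p of the study's methods (0.0507).

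The adjusted p of Tnf in AAT vs NOR lay near the threshold and ran from 0.0387 to 0.177 with 1 array left out. After each array was centred on its median it was 0.203. With the replicate number as a block, Tnf was called in AAT vs NOR. Without DIA array 1, the array with raised acinar signal, the DIA vs NOR change was −1.13, and without DIA array 2 it was −2.98. T cell markers overlapped between the groups, with mean log2 signals of 10.18 to 11.28 in NOR, 10.44 and 10.67 in DIA and 9.74 to 10.91 in AAT. Macrophage markers averaged 9.40 to 9.79 in NOR, 9.05 and 9.11 in DIA and 9.13 to 10.48 in AAT. Endothelial markers averaged 8.06 to 8.63 in NOR, 7.33 and 7.97 in DIA and 7.16 to 9.04 in AAT. Both of these means were thus lower in DIA than in NOR without overlap, while the summed signals overlapped. The Gapdh ratio lay above the NOR range (5.55 to 8.01) in DIA (10.8 and 10) and on AAT arrays 2, 3 and 4 (20.6, 8.3 and 25), and within it on AAT array 1 (7.43), where Tnf was 4.61. The part of this ratio or of the markers in the Tnf values was not tested.

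Lta was at 9.56, 8.88, 7.84 and 8.20 in PLN NOR, 9.36 and 8.37 in DIA and 7.92, 8.26, 7.71 and 6.99 in AAT. Ltb was at 8.33, 10.32, 10.47 and 9.69 in NOR, 11.64 and 9.87 in DIA and 9.92, 10.31, 9.86 and 7.06 in AAT. The groups overlapped for Ltb throughout, and for Lta in both comparisons with NOR. All 4 AAT arrays of Lta lay below both DIA arrays, as for 14.2% of all probe sets. Relative changes were 0.36 ± 0.66 for Lta and 1.17 ± 0.78 for Ltb in DIA vs NOR, and −0.56 ± 0.66 (limma adjusted p = 0.374) and −0.89 ± 0.78 (adjusted p = 0.34) in AAT vs DIA. Neither passed the study's thresholds in any PLN comparison.

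Tnfrsf1a was at 5.41, 9.18, 7.77 and 5.83 in PLN NOR, 9.74 and 8.18 in DIA and 9.12, 9.73, 9.29 and 7.97 in AAT. NOR arrays 1 and 4 were low, and array 2 lay among the DIA and AAT arrays, so the groups overlapped. The relative change was 2.02 ± 0.89 in DIA vs NOR (4.06-fold, limma adjusted p = 0.484) and 2.70 ± 0.72 in AAT vs NOR (6.5-fold, adjusted p = 0.108), and both passed the study's thresholds. Without NOR array 1 these values were 1.42 and 2.08, and without NOR array 2 they were 2.79 and 3.47. With the replicate number as a block, Tnfrsf1a was called in AAT vs NOR. Stromal and macrophage markers, from cells that carry this receptor, had summed signals of 12902 to 24083 and 49885 to 72662 in NOR, 10582 and 14365 and 59998 and 86255 in DIA, and 8076 to 47360 and 76706 to 122578 in AAT. Summed adipocyte markers, of a tissue where Tnfrsf1a was higher than in PLNs, were 3907 to 7682 in NOR, 2857 and 5414 in DIA and 9185 to 37564 in AAT. The part of these markers in the Tnfrsf1a values was not tested.

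Ltbr was dim in PLNs, between 2.96 and 7.16 over the 10 arrays, and its groups overlapped throughout. The brighter Tnfrsf1b probe set lay between 11.03 and 12.86, with relative changes of −0.09 ± 0.49 in DIA vs NOR and 0.54 ± 0.49 in AAT vs DIA. The dimmer Tnfrsf1b probe set was at 8.52, 7.48, 7.37 and 4.62 in NOR, 9.43 and 6.80 in DIA and 6.29, 5.59, 6.11 and 3.38 in AAT, and passed the study's thresholds in AAT vs DIA (−2.19 ± 1.20, limma adjusted p = 0.255; −1.15 without DIA array 1). All its AAT arrays lay below both DIA arrays, as for 14.2% of all probe sets. Traf2 was widely spread, from 1.55 on AAT array 4 to 8.59 on DIA array 1.

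Tnfaip2 by 1438855_x_at was the only member called between groups of 1 tissue, apart from the alternative settings given below. Its log2 signals were 13.06, 11.60, 12.41 and 13.37 in PLN NOR, 11.76 and 13.52 in DIA and 14.81, 13.72, 14.74 and 14.51 in AAT. All AAT arrays lay above all NOR arrays, as for 3.54% of all probe sets, and above both DIA arrays, as for 5.3%. It rose by a relative 2.56 ± 0.44 in AAT vs NOR (5.89-fold, limma adjusted p = 0.0303), where 3.74% of all probe sets were called, and stood at 2.39 ± 0.54 in AAT vs DIA (adjusted p = 0.141), where 0.0999% were called, and at 0.14 ± 0.54 in DIA vs NOR. Under quantile normalization the AAT vs NOR change was 1.12 with an adjusted p of 0.17. The call was also lost without any 1 of the NOR arrays (adjusted p = 0.0554 to 0.0907), without AAT array 3 (0.0689), without AAT array 4 (0.0703) and without both arrays of high acinar signal (0.0524). The AAT vs DIA value was 1.23 without DIA array 1 and 3.65 without DIA array 2. The other Tnfaip2 probe sets gave −0.00 ± 0.75 and −0.14 ± 0.83. Summed macrophage markers were 76706 to 122578 in AAT against 49885 to 72662 in NOR, and overlapped with DIA (59998 and 86255). Summed adipocyte markers were 9185 to 37564 in AAT against 3907 to 7682 in NOR and 2857 and 5414 in DIA. Their part in the Tnfaip2 values was not tested.

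Tnfaip3 by its brighter probe set was at 11.31, 11.75, 11.74 and 11.80 in PLN NOR, 10.51 and 11.56 in DIA and 11.43, 12.20, 11.73 and 12.45 in AAT, with relative changes of −0.50 ± 0.43 in DIA vs NOR and a mean of 11.95 in AAT against 11.03 in DIA (limma adjusted p = 0.288). The dimmer probe set was at 2.89, 6.57, 3.96 and 3.53 in NOR, 8.12 and 6.84 in DIA and 6.15, 6.06, 7.34 and 5.07 in AAT. Both DIA arrays lay above all NOR arrays, as for 8.99% of all probe sets. The DIA vs NOR change of 3.35 ± 1.24 passed the study's thresholds (limma adjusted p = 0.372), with 2.85 to 4.19 as the range when 1 array was left out. The DIA vs NOR values of the probe sets of Tnfaip3 were thus of opposite sign. Adam17 passed no threshold in PLNs, with relative changes from −0.71 ± 0.46 to 0.93 ± 0.61 over its probe sets in DIA vs NOR and from −0.03 ± 0.37 to 0.38 ± 0.49 in AAT vs NOR.

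**Figure D5:**
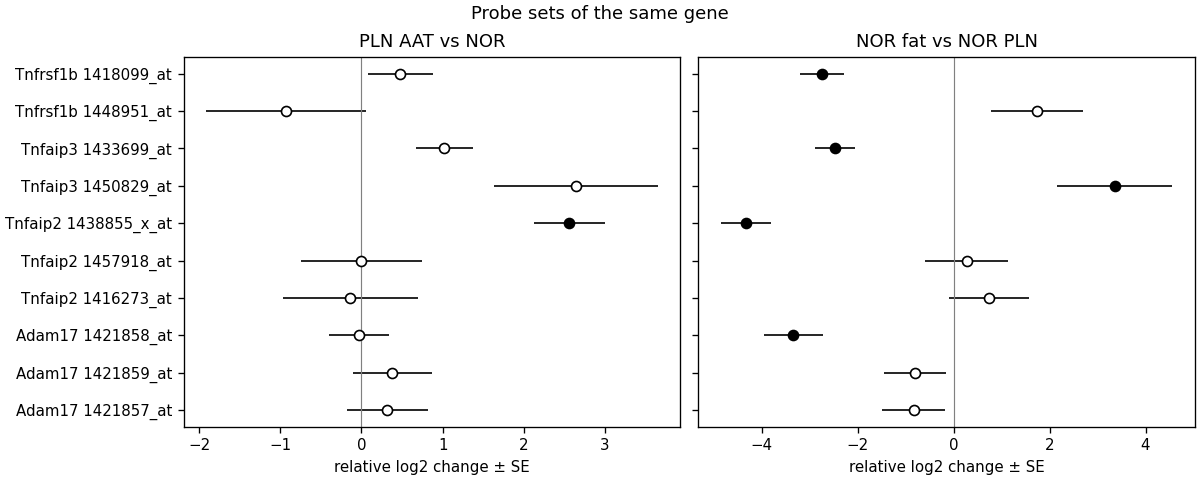
Relative log2 change ± SE (x axis) of every probe set of the 4 genes that have more than 1 (y axis), in PLN AAT vs NOR and in NOR fat vs NOR PLNs. Filled points are called at an adjusted p under 0.05. For Tnfaip2 the probe set 1438855_x_at (2.56 and −4.33) stands apart from the others, and for Tnfaip3 the probe sets have opposite signs in NOR fat vs NOR PLNs (−2.47 and 3.36).

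In counts, 0 of 16 members were called in PLN DIA vs NOR (0.0555% of all probe sets), 0 in AAT vs DIA (0.0999%) and 1 in AAT vs NOR (3.74%). At an unadjusted limma p under 0.05 there were 3 members in each of these comparisons. In the same order, 4489, 7581 and 11189 of all 45037 probe sets were under it. By the study's thresholds the counts were 3 (9.81% of all probe sets), 2 (16.5%) and 3 (23.4%). The rank product test that the study's methods name, with a fold change over 2, picked Lta (lower) and Ltb (higher) in fat DIA vs NOR, where it picked 11.8% of all probe sets, and Tnfrsf1a and the dimmer Tnfaip3 probe set (both higher) in PLN DIA vs NOR, where it picked 13.2%. The median relative change of the 10 genes in PLNs was 0.25 in DIA vs NOR, 0.60 in AAT vs DIA and 0.39 in AAT vs NOR. The brightest probe sets of all genes had medians of −0.05, 0.28 and 0.22 in these comparisons. By the study's thresholds in limma, no member that differed in DIA from NOR passed with the sign turned under AAT or PM against DIA. Lta in fat passed the rank product test lower in DIA vs NOR (permutation p = 0.033) and the limma thresholds higher in PM vs DIA, where the rank product test was not run. These Lta signals are dim, with linear means of 41.9 in NOR, 11 in DIA and 82.2 in PM, so the sizes of both changes are uncertain.

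Pathway genes were called in PLNs only in AAT vs NOR, where 1.1% of all probe sets were called higher and 2.64% lower. Of 31 TNF-induced genes 4 rose and 1 fell: Socs3, an inhibitor of cytokine signaling (2.95 ± 0.37, limma adjusted p = 0.00792), Nfkbia (2.56 ± 0.38, adjusted p = 0.0188) and the mitochondrial enzyme Sod2 (2.37 ± 0.35, adjusted p = 0.0221) were among those that rose. In the same comparison Cxcl12, a stromal chemokine, rose (2.72 ± 0.48, adjusted p = 0.0303) and Tnfrsf14, the receptor of LIGHT, fell (−1.55 ± 0.48, adjusted p = 0.0206) among 12 lymphotoxin beta receptor targets and partners. Of 28 adaptors, Tnip2, a partner of A20 (−3.36 ± 0.88, adjusted p = 0.0221), and the kinase Ikbke (−1.46 ± 0.59, adjusted p = 0.0458) fell and none rose. No shedding gene or other ligand was called. By the study's thresholds in AAT vs DIA, 4.83% of all probe sets passed upwards and 11.7% downwards. Of 28 adaptors 7 passed up and 3 down, and of 12 lymphotoxin beta receptor targets and partners 1 up and 6 down. Of 31 TNF-induced genes 4 passed up and 0 down, and of 12 NF-kB genes 2 up and 2 down. Of 22 other receptors 3 passed up and 4 down, of 11 other ligands 0 and 1, and of 8 shedding genes 1 and 0.

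The counts of called list genes in AAT vs NOR depended on the scaling. After centring each array on its median, 5 TNF-induced genes were called higher and 0 lower, and 1 adaptor was called higher and 0 lower. After quantile normalization Socs3 alone of the 31 remained called (adjusted p = 0.0339), and no adaptor, NF-kB gene, lymphotoxin target, receptor or ligand was. In AAT vs NOR the markers of several cell types lay above the median of all probe sets: 13 of 15 of macrophages, 10 of 12 of adipocytes (median 1.61, with Fabp4 and Lpl called higher), 10 of 12 of stroma, 13 of 13 of B cells and 12 of 12 of acinar cells. The brightest probe sets of all genes had a median of 0.22 there. The part of these markers in the changes was not tested.

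The disease and treatment effects were compared between the tissues as interactions in 1 limma fit of all arrays. None of the 16 members was called for the DIA vs NOR effect (0.00444% of all probe sets) or for the AAT vs DIA effect (0% of all). At an unadjusted p under 0.05 stood 3997 of all 45037 probe sets and 1 member for the DIA vs NOR effect. For the AAT vs DIA effect these were 3667 probe sets and 0 members. The smallest p belonged to the dimmer Tnfaip3 probe set, whose DIA vs NOR effect was lower in fat than in PLNs by a relative −5.10 ± 1.83 (limma adjusted p = 0.424). For Ltb the difference of the effects was 2.10 ± 1.24 (adjusted p = 0.646). No effect was thus shown to differ between the tissues.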

How the data were processed

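The 19 arrays were grouped by their labels. Each deposited table holds 1 intensity per probe set on a linear scale, made by the authors with MAS5, per the submitters' processing notes, and scaled so that the 2% trimmed mean of every array is 500.0. The study's methods name RMA and rank products, and the RMA values were not used here. Values under 1 were set to 1 and log2 was taken. Fits of all 45037 probe sets (64 controls left out) used limma 3.58.1 under R 4.3.3, with a mean per group, 1 fit per tissue and 1 of all arrays for tissue and interaction, eBayes with a trend, and Benjamini-Hochberg adjustment over all probe sets. Array number limits precision. Symbols were updated through Entrez identifiers. Of 252 genes in 16 lists, 224 were matched, and the others were not analysed here.

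The members, lists, tests and rules were chosen with earlier results of these data known. Named were all members and, per list, the called or threshold-passing genes with the smallest p-values. Alternatives were other groups in the fit, a replicate block, quantile normalization, median centring, floors, log2 of the signal plus 32, eBayes without trend, filters, other summaries of probe sets, the actin ratio as a covariate in fat, rank products with 100 permutations, and each array left out. Leaving out both PLN arrays with high acinar signal was chosen after seeing the data. The fits were tested on simulated data.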

Additional observations from a re-analysis of the deposited data

Results flagged for a closer look

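Dixon's test for 1 distant array was run on 32 sets of arrays, the 16 probe sets in the 2 groups of 4, and marked 3; chance marks about 1 in 20. On PLN AAT array 4 Ltb was at 7.06, against 9.86 on the nearest array of its group, a gap of 0.86 of the group's range. On PLN NOR array 2 Traf2 was at 8.23 against 6.52 on the nearest array (0.852 of the range). On PLN NOR array 1 the brighter Tnfaip3 probe set was at 11.31 against 11.74 (0.891 of the range), a small gap in a tight group.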

How the results depend on the processing

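With 2 to 4 arrays a group and several dim probe sets, few calls could be made. By the study's thresholds the numbers of members were 2, 3, 2, 1 and 1 in fat DIA vs NOR, PM vs DIA, AAT vs NOR, PM vs NOR and PM vs AAT, 3 in PLN DIA vs NOR, 2 in PLN AAT vs DIA, 3 in PLN AAT vs NOR, and 1 for the DIA vs NOR interaction; by rank product they were 2 in fat and 2 in PLN DIA vs NOR. The 1 call in PLN AAT vs NOR became 2 with only the groups compared, 2 with log2 of the signal plus 32 and 2 with the filter at percentile 40, and 0 with quantile normalization, 0 without the trend, 0 with means over probe sets and 0 without both arrays of high acinar signal. It ran from 0 to 2 with 1 array left out, and the call in PLN AAT vs DIA from 0 to 1 (Tnfaip2 without DIA array 2, 3.65). Without a block, Tnf in AAT vs NOR was the call gained, at limma adjusted p-values from 0.0316 to 0.0478. In normal fat vs PLNs the number of calls ran from 7 to 10.

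Whether the replicate numbers pair the arrays is not settled. In their deviations from group means, same-numbered arrays of different groups correlated at −0.261 to 0.291 in fat and −0.041 to 0.281 in PLNs. Differently numbered arrays ran from −0.291 to 0.261 and from −0.28 to 0.275. In fat, 2 of 12 same-numbered and 4 of 18 other pairs were over 0.1, and in PLNs 6 of 8 and 6 of 24. With the number as a replicate block, 3 members were called in PLN AAT vs NOR, Tnf (0.0295), Tnfrsf1a (0.0491) and Tnfaip2 (0.013), in place of 1.

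With the actin ratio as a covariate in fat, the median change of the 10 genes became −0.83 in DIA vs NOR, 0.49 in PM vs DIA and −0.37 in AAT vs NOR, and Adam17 (1421859_at) in PM vs DIA reversed to 1.77. Averaging probe sets reversed Tnfaip3 in normal fat vs PLNs to 0.36. The cause was not tested. Of 4179 recomputed values of single probe sets, 4135 stayed on their side of the threshold without a called value changing sign, 21 lost a call, 21 gained 1 and 2 changed direction.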

Other observations

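The genes whose signals followed a member most closely over the arrays of 1 tissue were ranked among 18925 candidates by Pearson correlation; the arrays share their scaling, and with 9 or 10 arrays high values are common among so many candidates. Over the 9 fat arrays Ltb was nearest to Gbp3, an interferon-induced GTPase (0.958), C1qc, a complement chain made by macrophages (0.958), Mettl1 (0.958) and Ly86, a surface protein of myeloid and B cells (0.952). Over the 10 PLN arrays Ltb was nearest to Coq8b (0.944) and Il6st, the shared receptor chain of the interleukin 6 family (0.941). Tnf was nearest to Mapk6 (0.965) and the glycolytic enzyme Aldoa (0.946) in fat, and to Ptprs, a receptor phosphatase (0.967), and Nxf1, an mRNA export factor (0.96), in PLNs.

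Probe sets of 1 gene followed each other poorly over arrays, apart from a pair of Adam17 in fat at 0.807. For Tnfrsf1b they correlated at 0.197 in fat and 0.121 in PLNs, for Tnfaip3 at 0.0999 and −0.319, for Tnfaip2 at −0.375 to 0.00667 and −0.529 to 0.0457, and for Adam17 at −0.587 to 0.807 and −0.368 to 0.41.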
